A study of Dorcoceras hygrometricum with 14 samples.

Results

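Gene expression in leaf explants of Boea hygrometrica after 5 days on induction medium was compared with that in explants taken at day 0. The comparison covers 16137 of the 24110 genes of the expression table, those with at least 1 FPKM in 3 or more of the 6 libraries of these days (3 per day). FPKM is the number of fragments per kilobase of transcript, scaled to the mapped fragments of the library. The series held 14 samples, 12 of them RNA libraries (days 0, 5, 10 and 15) and the others bisulfite libraries of young and of mature leaves.

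All 6 RNA libraries came from young leaves of 1-month-old sterile plants grown from seed of wild plants, with no transgene or mutation named. For all 6, 16 h of light per day and a temperature of 25 degrees C are given. Leaves were cut into segments with sides of 0.5 cm, and about 30 segments were mixed for each biological replicate. Day 5 segments had lain with the lower leaf surface on reduced-strength Murashige and Skoog medium with 2,4-D, a synthetic auxin, and 6-BA, a cytokinin, each at 0.1 mg/L. Day 0 segments were collected with 0 days on that medium, and the time between cutting and sampling is not given in the sources used here. No day 5 explants without growth regulators were analysed here, so time after cutting, the medium, auxin and cytokinin cannot be told apart in any difference below. In such bulk tissue fewer cells of a type and less RNA per cell cannot be told apart either.

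Boea hygrometrica is a resurrection plant, able to recover after its leaves have dried out, and its leaf pieces can form new shoots in culture. In other plants auxin and cytokinin in the medium lead cells of a leaf explant, many of them around the veins, to divide and form callus, from which roots or shoots arise. In the same period a cut leaf is known to pass through a wound response and to shift from a photosynthetic source organ to a sink that is fed by the medium.

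The summed FPKM of the 6 libraries ran from 896877 to 965610, and 15616 to 16366 genes per library reached 1 FPKM. Read totals are not in the table, which leaves the sequencing depth unknown. Across the genes tested, log2 values of replicates 1 and 2 correlated with r = 0.963 at day 0 and 0.970 at day 5, those of replicate 3 with the others of its day with r between 0.912 and 0.920, and those of different days with r between 0.860 and 0.905. Leaf tissue was evident on both days, since the named gene of highest level at day 0 was a RuBisCO small chain (F511_34498), which went from 49520, 44260 and 46010 to 22480, 24070 and 12520 FPKM in replicates 1, 2 and 3. The 3 later libraries lay below the 3 of day 0, but the difference did not pass the test (log2 fold change -1.30, SE 0.47, adjusted p = 0.0874).

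Called genes are those with an adjusted p under 0.05 in limma and a log2 fold change of 1 or more in either direction. Fold changes are on the log2(FPKM + 1) scale, which understates the change of low genes, and all adjusted p are limma's, over the 16137 genes. By this rule 1180 genes (7.31%) were called, of which 560 (3.47%) were higher and 620 (3.84%) lower at day 5. The libraries of the days did not overlap in 36.2% of all genes tested. Among the called genes they overlapped in 1 higher and 8 lower ones. A gene under 1 FPKM in all 3 libraries of a day entered the comparison only through the other day. Its direction and lack of overlap were thus fixed by the choice of genes, and its call adds no support. A log2 fold change of at least 2 in size was reached by 126 genes called higher and by 245 called lower, and the median over all genes tested was 0.14. A named protein was given for 75.7% of the genes called higher, 77.7% of those called lower and 75.2% of all genes tested.

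The counts depended on single libraries. Genes called higher numbered 275 (omitting replicate 2 of day 5), 285 (omitting replicate 1 of day 5), 288 (omitting replicate 1 of day 0) and 335 (omitting replicate 2 of day 0). Genes called lower numbered 175 (omitting replicate 2 of day 5), 189 (omitting replicate 1 of day 5), 193 (omitting replicate 1 of day 0) and 221 (omitting replicate 2 of day 0). With each of the 6 libraries left out in turn, 201 higher and 139 lower genes were called every time. On replicates 1 and 2 of each day alone, 2063 genes were called (12.8%), and 1014 of the 1180 genes were among them with the same direction. When libraries were rescaled by the median ratio, the median of all genes moved from 0.14 to -0.01. The called genes then numbered 1100 (6.82%), 353 higher and 747 lower, so that 32.1% of the called genes were higher in place of 47.5%.

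**Figure D1:**
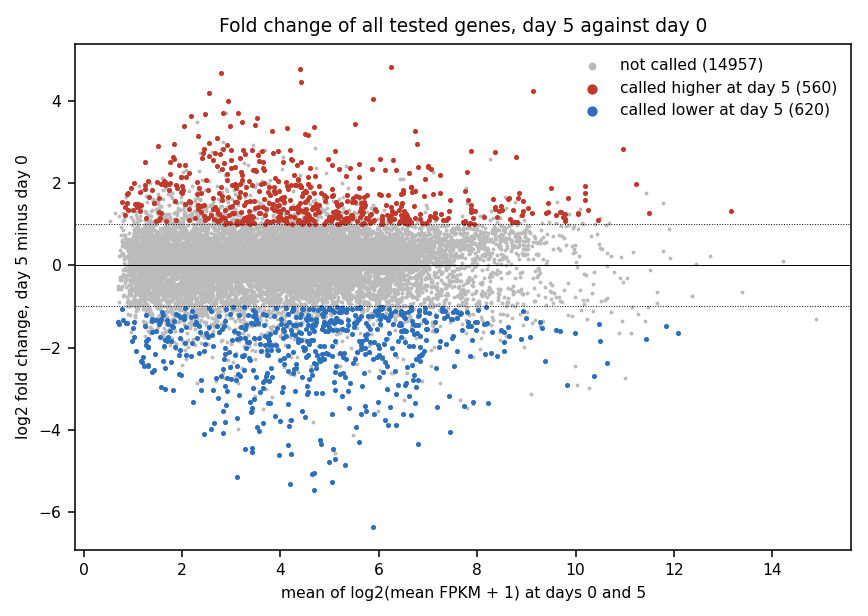
Log2 fold change at day 5 against day 0 (y axis) by level (x axis, the mean over both days of the log2 of the mean FPKM + 1) for the 16137 genes tested, with 560 called higher in red and 620 called lower in blue. The dotted lines mark a log2 fold change of 1 and -1, and the lowest point is CURVATURE THYLAKOID 1B at -6.35.

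A lignin-forming anionic peroxidase (F511_06406), a class III peroxidase that in other plants couples lignin monomers in the wall, measured 11, 13.6 and 12.5 FPKM in replicates 1, 2 and 3 of day 0 and 398, 189 and 699 at day 5. All 3 later libraries were far above day 0, with a spread among themselves that day 0 did not have (log2 fold change 4.82, SE 0.49, adjusted p = 0.00119). A ribonuclease of the T2 family (F511_39535), secreted enzymes that recycle phosphate from RNA in other plants, rose from 4.12, 3.54 and 1.54 to 136, 79.4 and 105 FPKM (4.76, adjusted p = 6.35e-05, the smallest adjusted p of any gene named here). A BURP domain protein (F511_18275), of a plant family of secreted proteins, went from 116, 156 and 112 to 2633, 2946 and 1821 FPKM (log2 fold change 4.24, SE 0.37, adjusted p = 0.000814). Its later means were 1378 FPKM at day 10 and 532 at day 15 (no test). An acyltransferase of the HXXXD type (F511_24117), a family that acylates many secondary metabolites, rose from 4.5, 3.7 and 2.17 to 69, 76.4 and 158 FPKM (4.45, adjusted p = 0.000927).

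An abscisic acid and a gibberellin enzyme were among the 15 named largest rises. Abscisic acid 8'-hydroxylase 4 (F511_11778), the type of cytochrome P450 that inactivates abscisic acid, was near 0 at day 0 with 0.16, 0.49 and 0.17 FPKM and reached 62.8, 30.5 and 15.7 at day 5. The day 5 values were spread widely (log2 fold change 4.67, SE 0.54, adjusted p = 0.00177). This hydroxylase gene entered the comparison only through day 5, so its direction and the lack of overlap were fixed by the choice of genes. Gibberellin 3-beta-dioxygenase 1 (F511_10046), which makes bioactive gibberellin, rose from 10.4, 7.01 and 24.9 to 286, 267 and 135 FPKM (log2 fold change 4.04, SE 0.45, adjusted p = 0.00177). In both genes replicate 3 had the lowest of the day 5 values. HVA22-like protein a (F511_25902), of a family that abscisic acid induces in barley, was listed at 0, 0 and 1.21 FPKM at day 0 and at 15.8, 23.7 and 30.9 at day 5 (4.18, adjusted p = 0.000814).

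Other leading rises were a homeobox gene, a NF-Y subunit, a metal transporter and wall enzymes. A gene described as STM1 protein (F511_13273), which the table also ties to homeobox proteins, rose from 0.07, 0.29 and 2.83 to 32.5, 30.4 and 19 FPKM (3.99, adjusted p = 0.00338). The NF-YC subunit C-1-like gene (F511_14287), part of a CCAAT-binding transcription factor, was listed at 0, 0 and 0.86 FPKM at day 0 and at 16.9, 9.23 and 18.5 at day 5 (3.63, adjusted p = 0.00277). That gene, too, entered the comparison only through day 5, which fixed its direction. Zinc transporter 10-like (F511_16365) rose from 1.46, 2.26 and 1.5 to 26.2, 41.2 and 23.5 FPKM (3.48, adjusted p = 0.000927). A CASP-like membrane protein (F511_11277) rose from 11.3, 20.7 and 7.81 to 172, 98.1 and 171 (3.43, adjusted p = 0.00362). A pectate lyase (F511_30241), which cleaves wall pectin, rose by 3.59 (adjusted p = 0.00746). A pathogenesis-related protein 5-like gene (BGI_novel_G000357) rose by 3.70 (adjusted p = 0.00507). Of the 15 named largest rises, 13 were called with any 1 of the 6 libraries left out. The others were ferric reduction oxidase 4 (F511_10968), whose call was lost on omitting replicate 1, 2 or 3 of day 0 or replicate 1 or 3 of day 5 (adjusted p from 0.074 to 0.109), and a protein inhibitor-like gene (F511_34763), whose call was lost on omitting replicate 1 of day 0 or replicate 1 or 2 of day 5 (adjusted p from 0.0694 to 0.075).

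The largest fall was in a thylakoid protein, and several of those that followed are known regulators of stress responses. CURVATURE THYLAKOID 1B (F511_10460), which curves the margins of thylakoid stacks in Arabidopsis, went from 613, 507 and 440.4 to 5.91, 3.2 and 7.73 FPKM. It stayed low afterwards, with means of 3.7 FPKM at day 10 and 2.97 at day 15 (no test). The change was the largest of either direction among the genes named (log2 fold change -6.35, SE 0.57, adjusted p = 0.000814). Flavonol synthase/flavanone 3-hydroxylase-like (F511_29741), an enzyme of flavonoid synthesis, fell from 54, 25.7 and 70.7 to 0.39, 0.63 and 2.81 FPKM (log2 fold change -4.52, SE 0.68, adjusted p = 0.00455). In this gene replicate 3 was the highest of day 0.

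In 14 of the 15 named largest falls replicate 3 was the lowest of the day 0 libraries. Dehydration-responsive element binding protein 3 (F511_34068; its homology description is ERF017-like), an AP2/ERF transcription factor, went from 82.2, 79.3 and 11.1 to 0, 0 and 0.82 FPKM. An Aux/IAA gene (auxin-induced protein 22D, F511_09042) had 246, 168 and 45.7 against 1.02, 3.58 and 4.46 FPKM. Both were called with any library left out (adjusted p = 0.00679 and 0.00496 with all). The former was under 1 FPKM in every day 5 library and entered the comparison only through day 0, which fixed its direction. ERF109-like (F511_10299), of an AP2/ERF subgroup tied to wounding in Arabidopsis, had 326, 256 and 20 FPKM at day 0 against 4.46, 0.29 and 1.95 at day 5. The day 0 values of its replicates 1 and 2 were over 10 times that of replicate 3, and the call (-5.46, adjusted p = 0.024) was lost on omitting replicate 1 or 2 of day 0 or replicate 1, 2 or 3 of day 5 (adjusted p from 0.0502 to 0.0945). CRT/DRE-binding factor 2 (F511_14026), of the cold and drought CBF group, had 219.7, 168 and 18.7 against 0.27, 2.09 and 2.07 FPKM (-5.30, adjusted p = 0.0234). Its call was lost on omitting replicate 1 or 2 of day 0 or replicate 1 or 2 of day 5 (adjusted p from 0.0646 to 0.0919). The ubiquitin ligase PUB22-like (F511_09571), which restrains immune signalling in Arabidopsis, had 225, 127 and 46.5 against 1.07, 0.65 and 9.93 FPKM and lost its call (-5.05, adjusted p = 0.0352) on omitting replicate 1 or 2 of day 0 or replicate 1 or 2 of day 5 (adjusted p from 0.0981 to 0.119). Of the 15 falls, 6 were called with any library left out.

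**Figure D2:**
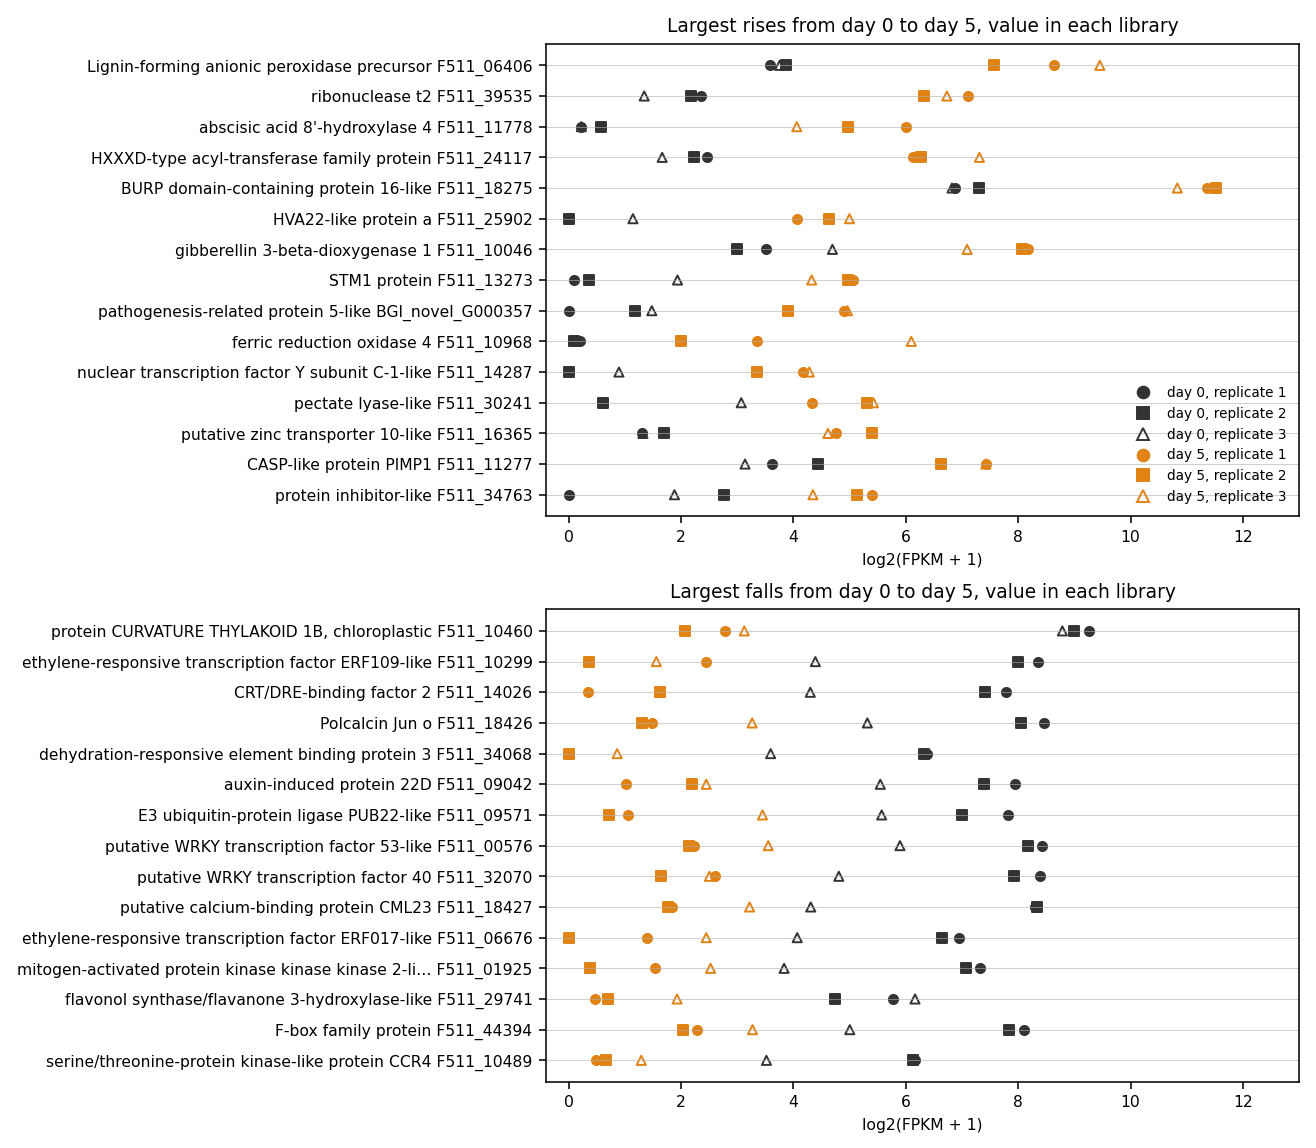
Level in each library, as log2(FPKM + 1) on the x axis, of the 15 named genes with the largest rises (upper panel) and the 15 with the largest falls (lower panel), black for day 0, orange for day 5, with open triangles for replicate 3. The days do not overlap in any of the 30 genes, which the naming rule required. In 14 of the 15 falls the black triangle lies below the other black symbols.

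This pattern of day 0 was not limited to the leading genes. Replicate 3 was the lowest of the day 0 libraries in 34.2% of all genes tested, in 58.9% of the genes called lower and in 19.5% of those called higher. It lay more than 1 log2 unit below both others in 4.99% of all genes, 26.3% of the lower genes (163) and 0.536% of the higher ones (3). What sets replicate 3 apart is not given in the labels, and its part in the falls below was not tested.

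Calcium sensors and kinases of the mitogen-activated cascade relay stimuli such as touch and wounding in plants. Among 84 calcium sensor and kinase genes there were 10 lower and 5 higher calls (3.84% lower and 3.47% higher over all genes), and the median log2 fold change was 0.08 (0.14 for all genes). Calmodulin-4 (F511_28583; a calmodulin-like EF-hand protein) fell from 96, 102 and 230.2 to 8.77, 14.3 and 10.7 FPKM (log2 fold change -3.46, SE 0.57, adjusted p = 0.00616). Here replicate 3 was the highest library of day 0, and the call was made with any library left out. Adjacent genes described as a polcalcin and CML23 (F511_18426 and F511_18427), which carry consecutive locus tags and may share reads if their sequences are near-identical, had day 0 values of 351, 264 and 38.8 and of 314, 322 and 18.8 FPKM. At day 5 they had 1.79, 1.48 and 8.62 and 2.59, 2.39 and 8.32 FPKM. Their calls were lost on omitting replicate 1 or 2 of day 0 or replicate 1 or 2 of day 5 (adjusted p from 0.0803 to 0.0915) and on omitting replicate 1 or 2 of day 0 or replicate 1 or 2 of day 5 (adjusted p from 0.0832 to 0.0986), in that order.

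Among the 5 that rose, a calcium and calcium/calmodulin-dependent protein kinase (F511_11328) went from 5.7, 2.86 and 4.38 to 26.8, 31.4 and 27.8 FPKM (log2 fold change 2.51, SE 0.39, adjusted p = 0.00496). CBL-interacting kinase 7-like (F511_20011), of a family that couples calcium sensors to ion transport, rose from 47.3, 77.4 and 50.5 to 139.7, 145 and 122 FPKM (1.23, adjusted p = 0.00484). Both held with any library left out. With 1 library left out, higher calls numbered 3 (omitting replicate 1 of day 0 or replicate 1 of day 5), and lower calls numbered 1 (omitting replicate 1 or 2 of day 0 or replicate 1 or 2 of day 5), and after rescaling there were 2 higher and 10 lower.

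Of 39 MAP kinase genes 6 were called lower and 0 higher (1 higher at an unadjusted p under 0.05), with a median of -0.33. MAP kinase kinase kinase 1 (F511_04618), at the head of the cascade, fell from 18.7, 9.23 and 11.7 to 0, 0.49 and 2.24 FPKM (log2 fold change -3.02, SE 0.45, adjusted p = 0.00442) and was the member called in every leave-one-out fit. MAP kinase 3-like (F511_16798), a wound- and elicitor-activated kinase in Arabidopsis, had 314, 255 and 56.8 against 13.5, 12.4 and 44.9 FPKM. This call did not hold on omitting replicate 1 or 2 of day 0 or replicate 1 or 2 of day 5 (adjusted p from 0.102 to 0.114). When single libraries were omitted, lower calls numbered 1 (omitting replicate 1 or 2 of day 0 or replicate 1 or 2 of day 5). Receptor kinases with leucine-rich repeats, 218 genes, had 9 called higher and 7 lower, or 7.34% against 7.31% of all genes. A receptor kinase named after At1g17230 in Arabidopsis (F511_05826) rose from 7.71, 8.14 and 9.58 to 24, 33 and 26.1 FPKM (1.59, adjusted p = 0.00616). In fits short of 1 library, higher calls numbered 2 (omitting replicate 1 of day 0 or replicate 1 or 2 of day 5) and 3 (omitting replicate 2 of day 0), and lower calls numbered 0 (omitting replicate 1 or 2 of day 0), 1 (omitting replicate 1 or 2 of day 5), 11 (omitting replicate 3 of day 0) and 12 (omitting replicate 3 of day 5), and after rescaling there were 7 higher and 13 lower.

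Transcription factor families were called in both directions. Of 52 WRKY genes, a family that acts in defence and senescence, 9 were called lower and 3 higher (3.84% and 3.47% over all genes). WRKY53 (F511_00576), known from leaf senescence in Arabidopsis, fell from 342, 287 and 58.5 to 3.67, 3.4 and 10.7 FPKM (-4.86, adjusted p = 0.00871). WRKY40 (F511_32070) fell from 334, 241 and 27 to 5.1, 2.13 and 4.68 FPKM (-4.78, adjusted p = 0.0103). The 3 that rose were a gene described as WRKY28 or WRKY44 (F511_08753; 2.41, 3.14 and 2.2 to 16.9, 11.7 and 27.9 FPKM), WRKY7 (F511_08198; 11.8, 19.1 and 15 to 40.1, 43.2 and 39.1) and WRKY57 (F511_31113; 11.7, 17.6 and 13.9 to 35.6, 35.7 and 31.7), with log2 fold changes of 2.39, 1.38 and 1.21. All 5 held with any library left out. After omission of a library, lower calls numbered 2 (omitting replicate 1 of day 0 or replicate 2 of day 5) and 3 (omitting replicate 2 of day 0 or replicate 1 of day 5).

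Lower calls fell on 11 of the 70 ERF and CBF genes, and higher calls on 3. Among all genes, 3.84% had a lower call and 3.47% a higher call. The median log2 fold change of the ERF and CBF list was -0.10, against 0.14 for all genes. ERF098-like (F511_35110) fell from 56.5, 74.2 and 22 to 1.48, 0.47 and 1.65 FPKM (log2 fold change -4.44, SE 0.77, adjusted p = 0.00726). The 3 that rose were ERF114-like (F511_24774; 0.6, 0.2 and 0 to 10.9, 16.6 and 9.56 FPKM), ERF113 (F511_10740; 27.7, 64.6 and 53.2 to 240.4, 191 and 318) and ERF003-like (F511_17296; 1.9, 1.49 and 4.73 to 24.9, 24.4 and 20.7), at log2 fold changes of 3.39, 2.39 and 2.81. ERF113 and ERF114 belong to a group that promotes lateral organ and callus formation after wounding in Arabidopsis. ERF114-like had means of 4.11 and 3.85 FPKM at days 10 and 15. It was under 1 FPKM in every day 0 library and entered the comparison only through day 5, which fixed its direction. Without 1 of the libraries, higher calls numbered 6 (omitting replicate 3 of day 0), and lower calls numbered 2 (omitting replicate 1 of day 0 or replicate 2 of day 5), 3 (omitting replicate 2 of day 0 or replicate 1 of day 5) and 17 (omitting replicate 3 of day 0).

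Among 39 NAC genes 5 were called lower and 3 higher. A NAC regulator (F511_12857) fell from 313, 145 and 178 to 6.44, 7.53 and 16.1 FPKM (log2 fold change -4.30, SE 0.65, adjusted p = 0.00457). So did NAC72-like (F511_04675), a stress and senescence regulator in Arabidopsis, from 79.1, 61 and 32.2 to 13, 12.8 and 8.08 (-2.19, adjusted p = 0.0082). Only these 2 of the list's called genes were called in each leave-one-out fit. In the leave-one-out fits, higher calls numbered 0 (omitting replicate 1 of day 0 or replicate 2 of day 5) and 1 (omitting replicate 2 of day 0 or replicate 1 or 3 of day 5), and lower calls numbered 2 (omitting replicate 1 or 2 of day 0 or replicate 1 or 2 of day 5). Of 51 bHLH genes 4 were called higher and 2 lower (3.47% and 3.84% over all genes). On omission of 1 library, lower calls numbered 1 (omitting replicate 1 or 2 of day 0 or replicate 1 or 2 of day 5), and after rescaling there were 3 higher and 5 lower. bHLH66-like (F511_10072), of a group that acts in root hair growth in Arabidopsis, rose from 26.7, 28.5 and 35.9 to 232, 241 and 109 FPKM (log2 fold change 2.56, SE 0.33, adjusted p = 0.00268), with bHLH30-like (F511_23177) at 2.15, adjusted p = 0.00563 and bHLH113 (F511_03772) at 1.66, adjusted p = 0.0067. PIF4 (F511_07280), a phytochrome-interacting growth regulator, fell from 31.4, 25.7 and 28.9 to 4.32, 3.67 and 13.5 FPKM (-2.06, adjusted p = 0.00952). bHLH63 (F511_28554) fell from 14.7, 8.92 and 4.5 to 0.91, 2.52 and 2.8 FPKM (-1.69, adjusted p = 0.0417). The gene was no longer called on omitting replicate 1 or 2 of day 0 or replicate 1, 2 or 3 of day 5 (adjusted p from 0.0561 to 0.152). Heat stress factor B-1-like (F511_01923) rose (4.84, 5.66 and 2.81 to 17.2, 17.4 and 15.1 FPKM) and heat stress factor A-4a (F511_01867) fell (46.8, 44.2 and 33.8 to 14, 11.5 and 18.9 FPKM), at 1.73, adjusted p = 0.0122 and -1.44, adjusted p = 0.00496.

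Among regulators of root and shoot founder cells a few members were called higher. Of 40 genes found by the names of LBD, WOX, KNOX, BELL and AP2-type regulators 4 were called higher and 0 lower (3 lower at an unadjusted p under 0.05). That is 10.0% called against 7.31% of all genes. The median was 0.23 (0.14 over all genes), and 0.07 after rescaling (-0.01 over all genes). WUSCHEL-related homeobox 11-like (F511_17086), which starts root founder cells in Arabidopsis leaf explants, went from 1.36, 6.55 and 3.53 to 29.1, 43.1 and 52.1 FPKM. The days did not overlap, and the call (log2 fold change 3.26, SE 0.66, adjusted p = 0.0129) was lost on omitting replicate 1 of day 0 or replicate 2 of day 5 (adjusted p from 0.0502 to 0.0528). LBD16-like (F511_01495), which auxin response factors switch on in Arabidopsis roots and callus, rose from 1.21, 0.69 and 1.07 to 7.81, 5.31 and 10.7 FPKM (2.13, adjusted p = 0.00498). LBD4 (F511_26445) had 7.32, 8.44 and 9.53 against 24.4, 34.4 and 27.6 FPKM and BEL1-like homeodomain protein 9 (F511_47024) 17.1, 11.5 and 22.1 against 28.7, 39.7 and 39.4. Their calls were lost on omitting replicate 1 or 2 of day 0 or replicate 1 or 2 of day 5 (adjusted p from 0.0555 to 0.0762) and on omitting replicate 2 of day 0 or replicate 2 of day 5 (adjusted p from 0.051 to 0.062). After rescaling BEL1-like homeodomain protein 9 (F511_47024) had a log2 fold change of 0.91. With 1 library left out, higher calls numbered 1 (omitting replicate 2 of day 5) and 2 (omitting replicate 1 or 2 of day 0), and lower calls numbered 4 (omitting replicate 3 of day 5). The text pattern missed LATERAL ORGAN BOUNDARIES-like (F511_25101), of the same family, added here after its values were seen, which went from 3.98, 3.79 and 5.76 to 45.3, 64.3 and 53.4 FPKM (3.33, adjusted p = 0.000814). The homeobox gene described as STM1 protein (F511_13273), given above among the largest rises, is also outside this list (3.99, adjusted p = 0.00338). A second WOX11-like gene (F511_04159) is a member that did not pass (0.98, adjusted p = 0.407), as is CUP-SHAPED COTYLEDON 2 (F511_05080), a boundary gene of shoot meristems (1.13, adjusted p = 0.275).

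Auxin response genes went both ways, with 3 of 59 called higher and 5 lower (3.47% and 3.84% over all genes) and a median of -0.04. Besides the Aux/IAA gene given above, the auxin-conjugating enzyme GH3.1 (F511_31069) fell from 24, 31.1 and 5.7 to 0.54, 0.17 and 2.59 FPKM (-3.23, adjusted p = 0.00975). Further Aux/IAA genes of the 22D type fell from 15.5, 16.5 and 17.8 to 8.67, 4.76 and 5.32 FPKM (F511_03621) and from 53.8, 80.2 and 87.2 to 28.2, 19 and 39.2 (F511_16857), and auxin response factor 18-like (F511_06333) from 30.3, 38.8 and 15.7 to 7.47, 8.11 and 11.9. These 3 calls were lost on omitting replicate 2 of day 5 (adjusted p = 0.051), on omitting replicate 1, 2 or 3 of day 0 or replicate 1 or 2 of day 5 (adjusted p from 0.0751 to 0.151) and on omitting replicate 1 or 2 of day 0 or replicate 1 or 2 of day 5 (adjusted p from 0.101 to 0.12). Auxin response factor 5 (F511_30984), called MONOPTEROS in Arabidopsis, rose from 4.36, 7.55 and 13.1 to 31.8, 31.1 and 32.8 FPKM (1.93, adjusted p = 0.0105). A SAUR gene (F511_28433) rose from 26.3, 72 and 47.4 to 159, 142 and 153 (1.73, adjusted p = 0.0102). The repressor IAA26 (F511_21789) rose from 68, 60.6 and 72.7 to 133, 129 and 145 FPKM (1.01, adjusted p = 0.01), with a log2 fold change of 0.84 after rescaling, of 0.94 without day 0 replicate 2 and of 0.96 without day 5 replicate 3. When single libraries were omitted, lower calls numbered 2 (omitting replicate 2 of day 5) and 3 (omitting replicate 1 or 2 of day 0 or replicate 1 of day 5). Of 18 auxin transport and synthesis genes 2 rose, the importer auxin transporter-like protein 2 (F511_05500; 21.5, 26.9 and 39.1 to 107, 118 and 67.8 FPKM; 1.72, adjusted p = 0.00399) and the auxin synthesis enzyme tryptophan aminotransferase-related 2 (F511_18081; 5.23, 5.37 and 9.34 to 17.3, 21.8 and 12.6 FPKM; 1.26, adjusted p = 0.0125). The latter was lost on omitting replicate 1 or 2 of day 0 or replicate 2 of day 5 (adjusted p from 0.05 to 0.0555).

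Cytokinin genes were called in both directions. With 3 higher calls and 4 lower calls among its 25 tested members, the cytokinin list had 28.0% called. For all genes this share was 7.31% (3.47% higher, 3.84% lower). The list's median log2 fold change was 0.30, against 0.14 for all genes. Among the higher ones were isopentenyltransferases, which make cytokinin precursors. Isopentenyltransferase 5 (F511_12691) went from 1, 0.33 and 1.89 to 12.3, 18.5 and 9.25 FPKM (log2 fold change 2.81, SE 0.32, adjusted p = 0.00177). Isopentenyltransferase 3 (F511_03692) rose from 22, 20.8 and 48.7 to 182, 194 and 86.8 (2.32, adjusted p = 0.0047). Among the lower ones were genes of the LOG family, which release the active bases. LOG3 (F511_39717) went from 11.6, 12.5 and 19.8 to 2.58, 1.66 and 3.13 FPKM (log2 fold change -2.17, SE 0.35, adjusted p = 0.00557). A second LOG3 gene (F511_13949) and LOG1-like (F511_01000) had log2 fold changes of -2.18 and -1.83, with calls lost on omitting replicate 1 of day 0 or replicate 1 of day 5 (adjusted p from 0.0577 to 0.0597) and on omitting replicate 1, 2 or 3 of day 0 or replicate 1, 2 or 3 of day 5 (adjusted p from 0.0643 to 0.114). The type-B response regulators ARR11-like (F511_01603) and ARR12-like (F511_02523) were called in opposite directions at 1.06 and -1.22, lost on omitting replicate 2 of day 0 or replicate 1 or 2 of day 5 (adjusted p from 0.0792 to 0.0829) and on omitting replicate 1 or 2 of day 0 or replicate 1 or 2 of day 5 (adjusted p from 0.08 to 0.0927). After rescaling ARR11-like (F511_01603) had 0.92. In fits short of 1 library, higher calls numbered 6 (omitting replicate 3 of day 5), and lower calls numbered 1 (omitting replicate 1 of day 0 or replicate 1 of day 5) and 2 (omitting replicate 2 of day 0 or replicate 2 of day 5).

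Other hormone lists held calls of both signs or of low stability. Zeaxanthin epoxidase (F511_11649), an early step of abscisic acid synthesis, fell from 253, 236 and 204 to 62, 53.9 and 81.5 FPKM (log2 fold change -1.81, SE 0.20, adjusted p = 0.00177). Abscisic acid itself was not measured here. Of 75 abscisic acid genes 6 were called higher and 7 lower (3.47% and 3.84% over all genes). After omission of a library, higher calls numbered 1 (omitting replicate 1 of day 0 or replicate 1 or 2 of day 5), 2 (omitting replicate 2 of day 0) and 3 (omitting replicate 3 of day 5), and lower calls numbered 1 (omitting replicate 1 of day 5) and 2 (omitting replicate 1 or 2 of day 0 or replicate 2 of day 5). Jasmonate genes, 25 in all, had 4 called lower, 1 higher and a median of -0.94. Allene oxide synthase (F511_08159), the committed step of jasmonate synthesis, fell from 54.4, 69 and 26.1 to 7.2, 8.02 and 12.7 FPKM (-2.23, adjusted p = 0.0069). TIFY 10A-like (F511_05624), a JAZ repressor that jasmonate induces in Arabidopsis, had 337, 374 and 89.6 against 52, 40.6 and 54.3 FPKM. It lost its call on omitting replicate 1 or 2 of day 0 or replicate 1 or 2 of day 5 (adjusted p from 0.0595 to 0.0772). The 1 higher gene is known only as a lipoxygenase homology domain protein (F511_42868). Without 1 of the libraries, higher calls numbered 2 (omitting replicate 3 of day 5), and lower calls numbered 1 (omitting replicate 1 or 2 of day 0 or replicate 1 of day 5), 2 (omitting replicate 2 of day 5) and 7 (omitting replicate 3 of day 0). Of 25 ethylene genes 3 were called higher and 0 lower (3 lower at an unadjusted p under 0.05). In the leave-one-out fits, higher calls numbered 0 (omitting replicate 1 of day 0 or replicate 1 or 3 of day 5) and 1 (omitting replicate 2 of day 0 or replicate 2 of day 5), and lower calls numbered 1 (omitting replicate 3 of day 0).

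**Figure D3:**
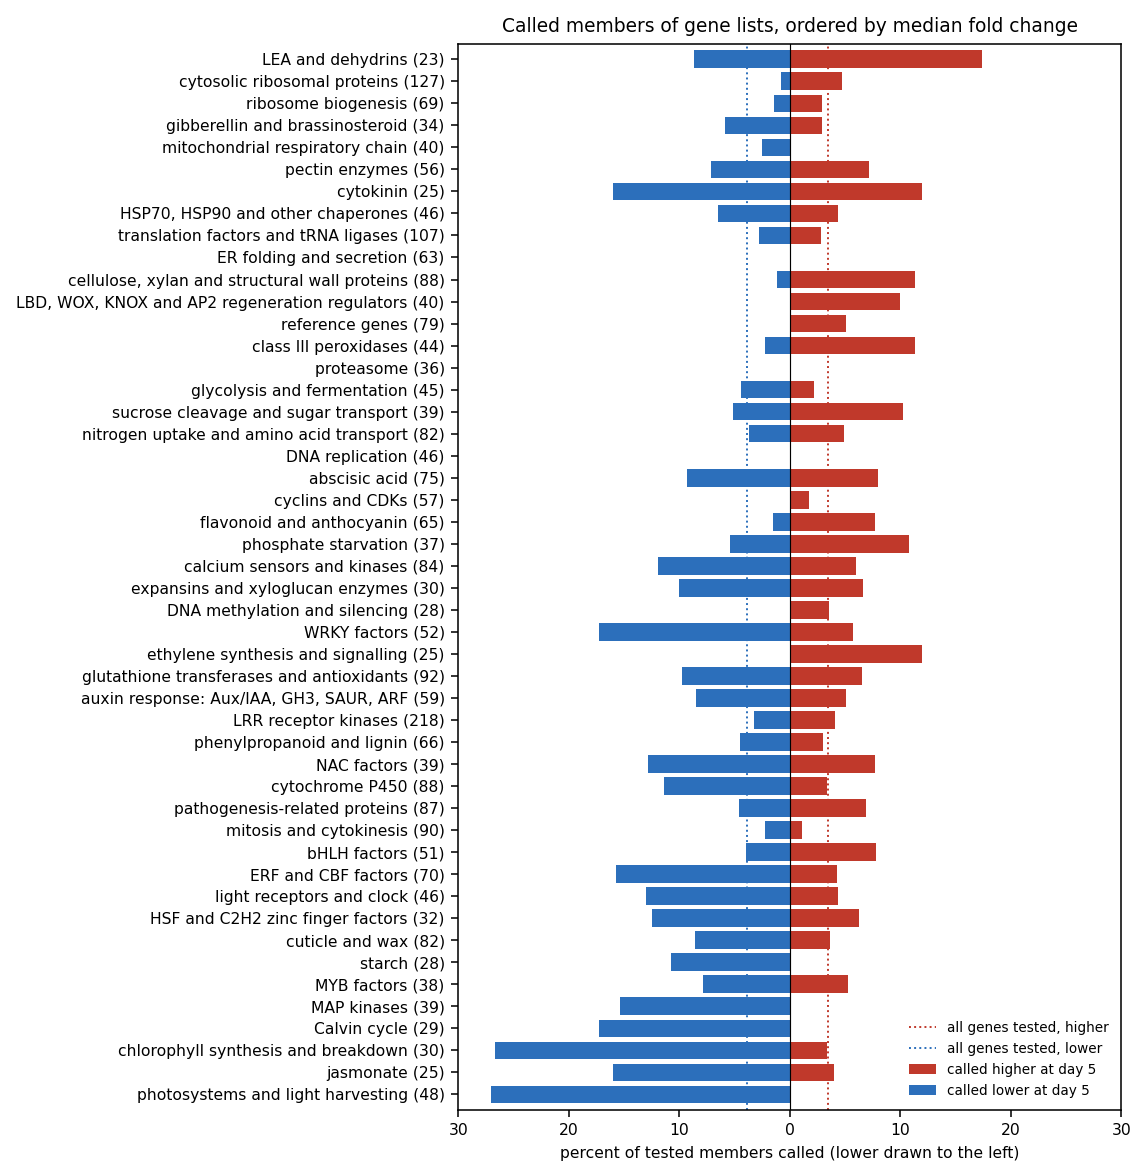
Percent of the tested members of each gene list called higher (red, to the right) and lower (blue, to the left) at day 5, for the lists with 20 or more members tested (number in parentheses), ordered by median log2 fold change. Dotted lines mark 3.47% higher and 3.84% lower over all genes tested. Photosystem genes reach 13 of 48 lower, at the bottom, and dehydrin genes lie at the top.

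Photosynthesis genes had low medians, although most single genes did not pass the test. Of 48 photosystem and light-harvesting genes only 2 had a log2 fold change above 0 (9808 of 16137 over all genes). Among the 48, 13 were called lower and 0 higher (1 higher at an unadjusted p under 0.05). The shares over all genes were 3.84% lower and 3.47% higher. The list's median was -1.13 (0.14 over all genes). Summed FPKM of the list was 66000, 54200 and 100000 at day 0 against 26900, 26200 and 24100 for day 5. That is 6.84%, 5.79% and 10.4% of all FPKM at day 0 against 2.81%, 2.73% and 2.68% at day 5, with no overlap. Chlorophyll a-b binding protein 8 (F511_08750), a light-harvesting protein, fell from 2899, 2266 and 4772 to 437, 309.9 and 859.8 FPKM (-2.69, adjusted p = 0.0188). The call ended on omitting replicate 1 of day 0 or replicate 1 or 2 of day 5 (adjusted p from 0.0574 to 0.0746). Plastocyanin (F511_00970), which carries electrons to photosystem I, fell from 544, 412 and 337 to 70.8, 59.8 and 106 FPKM (-2.45, adjusted p = 0.0213). Its call fell away on omitting replicate 1 or 2 of day 0 or replicate 1 or 2 of day 5 (adjusted p from 0.0638 to 0.0798). On omission of 1 library, lower calls numbered 1 (omitting replicate 1 or 2 of day 0 or replicate 1 or 2 of day 5) and 4 (omitting replicate 3 of day 0). A fit to the 6 libraries of these days alone called 21 lower. The means of the binding protein were 1423 and 1174 FPKM at days 10 and 15.

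Enzymes of the Calvin cycle, which fixes carbon dioxide, had 5 of 29 genes called lower and 0 higher (3 higher at an unadjusted p under 0.05). The shares over all genes were 3.84% lower and 3.47% higher. With 1 library left out, higher calls numbered 1 (omitting replicate 3 of day 0), and lower calls numbered 0 (omitting replicate 1 of day 0), 1 (omitting replicate 2 of day 0 or replicate 1, 2 or 3 of day 5) and 3 (omitting replicate 3 of day 0), and after rescaling there were 0 higher and 3 lower. RuBisCO activase (F511_06046) fell from 5473, 4834 and 5021 to 1657, 1622 and 1195 FPKM (-1.79, adjusted p = 0.0131). It was not called on omitting replicate 1 of day 0 (adjusted p = 0.0506). In chlorophyll metabolism 8 of 30 genes were called lower and 1 higher. Pheophytinase (F511_08901), which acts in chlorophyll breakdown, fell from 229, 199.6 and 189.9 to 71.3, 60 and 54 FPKM (log2 fold change -1.73, SE 0.25, adjusted p = 0.00399). The magnesium chelatase subunit ChlI of a low-level locus (BGI_novel_G000011), a synthesis gene, rose from 0.33, 0.49 and 0.67 to 6.33, 5.14 and 3.42 (1.97, adjusted p = 0.00616). When single libraries were omitted, higher calls numbered 2 (omitting replicate 3 of day 5), and lower calls numbered 2 (omitting replicate 2 of day 0 or replicate 1 or 2 of day 5) and 3 (omitting replicate 1 of day 0). CONSTANS-LIKE genes of the light list also split, since CONSTANS-LIKE 6 (F511_05204) rose from 12.1, 7.04 and 9.39 to 65.3, 68.8 and 31.7 FPKM (2.37, adjusted p = 0.0036). By contrast, CONSTANS-LIKE 5 (F511_00861) fell from 64.2, 47.9 and 71.3 to 3.38, 4.07 and 16.2 (-3.08, adjusted p = 0.0146). Its call was lost on omitting replicate 1 of day 0 or replicate 1 or 2 of day 5 (adjusted p from 0.053 to 0.0614).

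**Figure D4:**
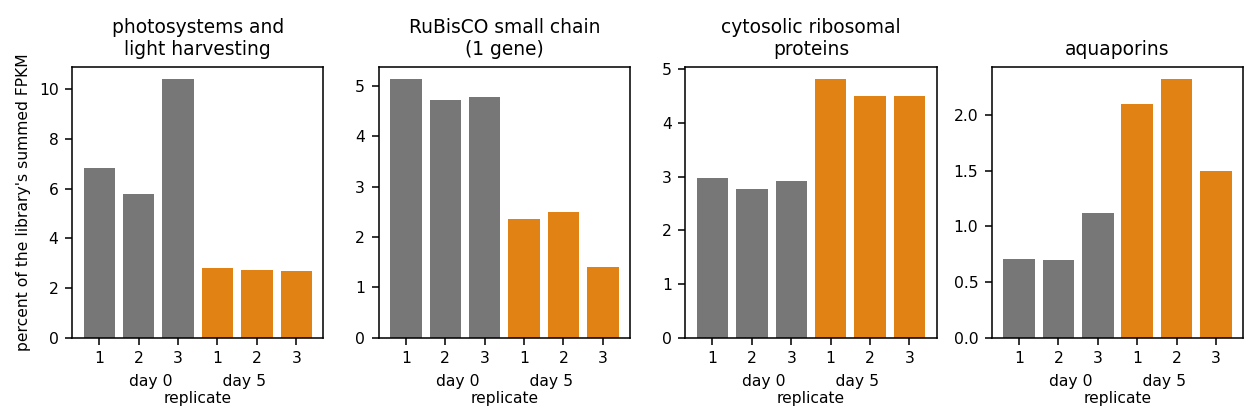
Share of each library's summed FPKM (y axis, percent) taken by photosystem and light-harvesting genes, by the RuBisCO small chain gene F511_34498, by cytosolic ribosomal proteins and by aquaporins, with 1 bar per replicate, grey for day 0 and orange for day 5. The days do not overlap in any panel, and the photosystem share of day 0 replicate 3, 10.4%, is the highest.

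Sucrose synthase 2 (F511_16986), which cleaves sucrose in sink organs, rose from 4.67, 5.96 and 18.7 to 38.7, 32 and 42.6 FPKM (log2 fold change 2.07, SE 0.39, adjusted p = 0.0106), and its means were 57.4 and 109 at days 10 and 15. A cell-wall invertase (F511_25658), which cleaves sucrose outside the cell, rose from 23.5, 37.9 and 18.6 to 56.7, 54.5 and 61.7 FPKM (1.14, adjusted p = 0.0129), although without day 0 replicate 1 the adjusted p was 0.0522 and without day 0 replicate 3 the log2 fold change was 0.92. After rescaling it was 0.98. Of 39 genes of sucrose cleavage and sugar transport 4 were called higher and 2 lower (3.47% and 3.84% over all genes). In fits short of 1 library, higher calls numbered 2 (omitting replicate 1 or 3 of day 0 or replicate 1 of day 5), and lower calls numbered 1 (omitting replicate 1, 2 or 3 of day 0 or replicate 1 or 2 of day 5), and after rescaling there were 1 higher and 3 lower. Hexokinase-3-like (F511_08364) fell from 28.1, 21.8 and 13.2 to 4.24, 4.61 and 7.18 FPKM (-1.76, adjusted p = 0.00858).

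In starch metabolism 3 of 28 genes were called lower, all of the beta-amylase family, which acts in starch breakdown, and 0 higher (0 higher at an unadjusted p under 0.05). That is 10.7% called against 7.31% of all genes. The beta-amylase 9-like genes, described as inactive enzymes, went from 26.9, 29.5 and 15.8 to 0.72, 1.08 and 4.73 FPKM (F511_03722; -3.15, adjusted p = 0.00374) and from 14.9, 18.1 and 20.8 to 0.54, 0.87 and 4.09 (F511_35646; -2.94, adjusted p = 0.0066). Another beta-amylase (F511_41795) fell from 168, 135 and 115 to 51.9, 50.4 and 48 FPKM (-1.44, adjusted p = 0.00215), and all 3 held with any library left out.

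Glutamine synthetase, which assimilates ammonium, had isoforms called in opposite directions. The chloroplast form (F511_04119) fell from 728, 599 and 607 to 175, 181 and 97.1 FPKM (-2.14, adjusted p = 0.0234) and was lost on omitting replicate 1 or 2 of day 0 or replicate 1, 2 or 3 of day 5 (adjusted p from 0.0593 to 0.0813). The form described as the nodule isozyme (F511_39523), a cytosolic type in legumes, rose from 55.3, 50.7 and 72.5 to 157, 112 and 159 (log2 fold change 1.25, SE 0.24, adjusted p = 0.0102). The means of the nodule-type gene were 171 and 325 FPKM at days 10 and 15. Glutamate synthase (F511_03431), the ferredoxin-dependent partner enzyme of the chloroplast, fell from 115, 122 and 110.5 to 50.5, 49.7 and 60.6 FPKM (-1.10, adjusted p = 0.00774). High-affinity nitrate transporter 3.1 (F511_28104), an accessory protein of nitrate uptake in roots, rose from 16.5, 45 and 39.1 to 319, 196 and 457 FPKM (log2 fold change 3.27, SE 0.40, adjusted p = 0.00226). Of 82 genes of nitrogen uptake and amino acid transport 4 were called higher and 3 lower, or 8.54% against 7.31% of all genes. After omission of a library, higher calls numbered 2 (omitting replicate 1 of day 0), and lower calls numbered 1 (omitting replicate 1 or 2 of day 0 or replicate 1 or 2 of day 5).

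Of 37 phosphate uptake and recovery genes, among them the T2 ribonuclease above, 4 were called higher and 2 lower (3.47% and 3.84% over all genes), 20 had a log2 fold change above 0, and the median was 0.09 (0.14 over all genes). Phosphate transporter 1,4 (F511_20836), a plasma membrane importer, went from 49.3, 62.2 and 54 to 263, 283 and 337 FPKM (log2 fold change 2.39, SE 0.24, adjusted p = 0.00118), with close values within each day. A purple acid phosphatase (F511_28549), which releases phosphate from organic compounds, rose from 7.18, 9.94 and 12.6 to 33.2, 31.3 and 57.6 FPKM (1.91, adjusted p = 0.0112). The lower ones were phosphate transporter 3,1 (F511_27134; 8.66, 13 and 5.67 to 2.6, 2.07 and 1.65 FPKM) and an SPX domain membrane protein (F511_04047; 2.47, 2.12 and 6.8 to 0.46, 0.4 and 0.44 FPKM). Their calls were lost on omitting replicate 1 or 2 of day 0 or replicate 1, 2 or 3 of day 5 (adjusted p from 0.0702 to 0.105) and on omitting replicate 1 of day 0 or replicate 1 or 2 of day 5 (adjusted p from 0.0506 to 0.0718). Without 1 of the libraries, lower calls numbered 0 (omitting replicate 1 of day 0 or replicate 1 or 2 of day 5) and 1 (omitting replicate 2 of day 0 or replicate 3 of day 5).

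Of 88 genes of cellulose, xylan and structural wall proteins 10 were called higher and 1 lower (3.47% and 3.84% over all genes), and the median was 0.24. A 14 kDa proline-rich protein of the DC2.15 type (F511_32295), a small secreted protein, rose from 1216, 377 and 754 to 5558, 5758 and 3918 FPKM (log2 fold change 2.83, SE 0.40, adjusted p = 0.00376). Fasciclin-like arabinogalactan protein 9-like (F511_27071) rose from 121, 107 and 112 to 482, 336 and 386 FPKM (1.80, adjusted p = 0.0136). This call did not hold on omitting replicate 1 of day 5 (adjusted p = 0.0576). In the leave-one-out fits, higher calls numbered 3 (omitting replicate 1 or 2 of day 0 or replicate 1 of day 5) and 5 (omitting replicate 2 of day 5), and lower calls numbered 0 (omitting replicate 1 of day 0 or replicate 1 or 2 of day 5), 2 (omitting replicate 3 of day 5) and 3 (omitting replicate 3 of day 0). Of 56 pectin enzymes 4 were called higher and 4 lower, or 14.3% against 7.31% of all genes. A pectinesterase/pectinesterase inhibitor 12 (F511_44371) rose from 13.9, 11.7 and 28.5 to 102, 121 and 60.7 FPKM (2.37, adjusted p = 0.00554). A polygalacturonase beta subunit-like gene (F511_18904) fell from 51.5, 52.4 and 61.2 to 23.5, 24.1 and 29 (-1.08, adjusted p = 0.011). On omission of 1 library, higher calls numbered 2 (omitting replicate 2 of day 5) and 7 (omitting replicate 3 of day 0), and lower calls numbered 1 (omitting replicate 1 of day 0 or replicate 1 of day 5) and 2 (omitting replicate 2 of day 0 or replicate 2 of day 5). Of 44 class III peroxidases 5 were called higher and 1 lower, with peroxidase 47-like (F511_38627) at 37.1, 69.4 and 49.7 against 181, 194 and 196 FPKM (1.90, adjusted p = 0.00209). With 1 library left out, higher calls numbered 2 (omitting replicate 1 or 2 of day 0) and 3 (omitting replicate 1 or 2 of day 5), and lower calls numbered 0 (omitting replicate 1 or 2 of day 0 or replicate 1, 2 or 3 of day 5).

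Aquaporins, channels for water and small solutes, had 4 of 12 genes called higher (3.47% over all genes) and 0 lower (1 lower at an unadjusted p under 0.05), with a median of 0.93. Aquaporin TIP1-1-like (F511_05246), a channel of the vacuole membrane, reached 16320, 17660 and 9448 FPKM at day 5 from 4614, 4538 and 8228 at day 0 and was among the 5 named genes of highest level at day 5. Its call (1.33, adjusted p = 0.0253) was lost on omitting replicate 1 or 2 of day 0 or replicate 1 or 2 of day 5 (adjusted p from 0.0902 to 0.0961). NIP5-1 (F511_39079), which takes up boric acid in Arabidopsis roots, rose from 0.39, 1.56 and 6.07 to 16.7, 15.7 and 16.3 FPKM (log2 fold change 2.55, SE 0.44, adjusted p = 0.007) and was called with any library left out. TIP4-1 (F511_06209) had 54.1, 74.2 and 308 against 546, 781 and 918 FPKM, with day 0 replicate 3 well above the other day 0 libraries, and was lost on omitting replicate 1 or 2 of day 0 or replicate 2 of day 5 (adjusted p from 0.0563 to 0.0589). The remaining gene, NIP2-1-like (F511_01992), outside the naming rule, rose from 5.15, 1.23 and 17.2 to 23.3, 42.8 and 49 FPKM (2.58, adjusted p = 0.0423) and was called in 1 of the 6 fits that leave out a library. When single libraries were omitted, higher calls numbered 1 (omitting replicate 1 or 2 of day 0 or replicate 2 of day 5) and 2 (omitting replicate 1 of day 5), and after rescaling there were 2 higher and 0 lower. A fit to the 6 libraries of these days alone called 2 higher, and TIP1-1-like (F511_05246) had an adjusted p of 0.0724 after rescaling.

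Phenolic oxidation and detoxification genes changed in both directions. Of 4 polyphenol oxidases, chloroplast enzymes that brown wounded tissue, 3 were called lower, with a median of -3.05. They were F511_09757 (1506, 759.5 and 605 to 60.4, 87.8 and 124 FPKM; -3.33, adjusted p = 0.00266), F511_05840 (480.4, 351 and 216 to 21, 18.6 and 43.3 FPKM; -3.64, adjusted p = 0.0036) and F511_05839 (18.7, 13.6 and 20 to 0.27, 1.14 and 6.02 FPKM; -2.77, adjusted p = 0.0211). The gene was no longer called on omitting replicate 1 or 2 of day 0 or replicate 1 or 2 of day 5 (adjusted p from 0.0551 to 0.0786). The genes F511_05839 and F511_05840 carry consecutive locus tags, so reads may be shared between them. A superoxide dismutase (F511_38247), which removes superoxide, fell from 962, 227 and 89.4 to 27.2, 26.9 and 22.9 FPKM (-3.35, adjusted p = 0.0109), with replicate 1 well above the others at day 0. Alternative oxidase 1B (F511_07348), a bypass of the mitochondrial respiratory chain, fell from 83.5, 142 and 73.8 to 23.5, 24 and 11.7 FPKM (log2 fold change -2.29, SE 0.34, adjusted p = 0.00435). Of 92 glutathione transferase and antioxidant genes 6 were called higher and 9 lower (3.47% and 3.84% over all genes). In fits short of 1 library, higher calls numbered 1 (omitting replicate 2 of day 5), 2 (omitting replicate 1 or 2 of day 0) and 3 (omitting replicate 1 of day 5), and lower calls numbered 3 (omitting replicate 1 of day 5), 4 (omitting replicate 2 of day 5) and 5 (omitting replicate 1 or 2 of day 0), and after rescaling there were 3 higher and 9 lower. A glutathione S-transferase (BGI_novel_G000664) rose from 264, 309 and 356 to 786, 827 and 699 FPKM (1.32, adjusted p = 0.00557).

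Cytochrome P450 genes, 88 in all, had 10 called lower and 3 higher (3.84% and 3.47% over all genes). After omission of a library, higher calls numbered 0 (omitting replicate 1 or 2 of day 0 or replicate 1 of day 5) and 1 (omitting replicate 2 or 3 of day 5), and lower calls numbered 3 (omitting replicate 1 or 2 of day 5), 4 (omitting replicate 2 of day 0) and 6 (omitting replicate 1 of day 0), and after rescaling there were 1 higher and 10 lower. CYP81D11-like genes, known as stress-induced monooxygenases in Arabidopsis, fell from 81, 89.5 and 118 to 26, 25.1 and 22.1 FPKM (F511_14494; -1.92, adjusted p = 0.00952) and from 244, 357 and 379 to 100.5, 72.9 and 126 (F511_25498; -1.71, adjusted p = 0.00569). Of 82 cuticle and wax genes 3 were called higher and 7 lower, with a median of -0.18. Without 1 of the libraries, lower calls numbered 1 (omitting replicate 1 or 2 of day 5), 2 (omitting replicate 1 of day 0), 4 (omitting replicate 2 or 3 of day 0) and 16 (omitting replicate 3 of day 5), and after rescaling there were 3 higher and 11 lower. Non-specific lipid-transfer proteins, which carry lipids in the wall and cuticle, rose in F511_06368 (19.8, 21.4 and 86.5 to 177, 336 and 308 FPKM; 2.94, adjusted p = 0.00657) and F511_11006 (2.59, 5.99 and 5.1 to 42.2, 44.3 and 21.7 FPKM; 2.73, adjusted p = 0.00515). Another, F511_03138, had 0.36, 0.12 and 0 against 1.61, 1.32 and 2.27 FPKM (1.23, adjusted p = 0.0407), and its call was lost with any library left out. GDSL esterases, a family of lipid hydrolases, fell in F511_03366 (13.4, 9.43 and 23.9 to 0.76, 1.17 and 4.24 FPKM; -2.52, adjusted p = 0.0105), F511_14742 (-1.64, adjusted p = 0.0158) and F511_09863 (-1.34, adjusted p = 0.0195). The calls of F511_14742 and F511_09863 were lost on omitting replicate 1 or 2 of day 5 (adjusted p from 0.0589 to 0.0637) and on omitting replicate 1 of day 0 or replicate 1 or 2 of day 5 (adjusted p from 0.0608 to 0.0714). An anthocyanidin glycoside xylosyltransferase (F511_38733) rose from 54.3, 42.3 and 124 to 314, 305 and 302 FPKM (adjusted p = 0.0066).

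Genes of protein synthesis had small differences of mostly 1 sign. Of 127 cytosolic ribosomal protein genes 125 had a log2 fold change above 0 (9808 of 16137 over all genes), the median was 0.66 (0.49 after median-ratio rescaling), and 6 were called higher and 1 lower. Their share of all FPKM was 2.98%, 2.76% and 2.92% at day 0 and 4.81%, 4.5% and 4.51% at day 5, with close values within each day. Ribosomal protein L27-3-like (BGI_novel_G001073) rose from 37, 30.4 and 46.4 to 110.0, 84.5 and 90.9 FPKM (log2 fold change 1.31, SE 0.17, adjusted p = 0.00258). Ribosomal protein L12 (F511_06872) rose from 93.9, 83.6 and 118 to 274, 248 and 188 (1.25, adjusted p = 0.00399). In the leave-one-out fits, higher calls numbered 3 (omitting replicate 1 of day 5), 11 (omitting replicate 3 of day 0) and 12 (omitting replicate 3 of day 5), and after rescaling there were 2 higher and 1 lower. Of 107 translation factors and tRNA ligases 3 were called higher and 3 lower, or 5.61% against 7.31% of all genes, with a median of 0.29. After rescaling there were 1 higher and 3 lower. Elongation factor 1-alpha (F511_06854), which brings aminoacyl-tRNA to the ribosome, rose from 507, 536 and 557 to 1461, 1446 and 1047 FPKM (1.29, adjusted p = 0.00411). Initiation factor 5-like (F511_13345) rose from 38.4, 35.9 and 45.2 to 84.5, 81.3 and 87.5 (1.07, adjusted p = 0.00177; 0.91 after rescaling). Among the lower ones were translation initiation factor 3 (F511_21356), from 108, 79.2 and 77.5 to 33.2, 31.9 and 44.7 FPKM (-1.24, adjusted p = 0.00554) and a chloroplast alanine-tRNA ligase (F511_14126), from 177, 164 and 156 to 74.1, 76.3 and 76.6 (-1.12, adjusted p = 0.0118). The homology description of F511_21356 is a chloroplast initiation factor, IF-3.

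Over all genes 7.31% were called, against the following counts in the cell division lists. Of 46 DNA replication genes limma called 0 in either direction (2 higher and 3 lower at an unadjusted p under 0.05), with a median of 0.12 that became -0.02 after rescaling. With 1 library left out, higher calls numbered 2 (omitting replicate 3 of day 0). Of 17 core histone genes 0 were called (0 and 5 at an unadjusted p under 0.05), with a median of -0.48. When single libraries were omitted, lower calls numbered 2 (omitting replicate 3 of day 5), and after rescaling there were 0 higher and 1 lower. Of 57 cyclin and kinase genes 1 was called, cyclin-P3-1 (F511_03703), which went from 16.3, 8.29 and 21.4 to 40.2, 42.3 and 43.3 FPKM (1.48, adjusted p = 0.0142) and was lost on omitting replicate 1 or 2 of day 5 (adjusted p from 0.0502 to 0.0535). In fits short of 1 library, higher calls numbered 0 (omitting replicate 1 or 2 of day 5) and 2 (omitting replicate 3 of day 0), and after rescaling there were 1 higher and 1 lower. The P-type cyclins are linked to phosphate signalling in Arabidopsis and yeast. Of 90 mitosis and cytokinesis genes 1 was called higher and 2 lower, and the median was -0.10. After omission of a library, higher calls numbered 0 (omitting replicate 2 of day 5) and 2 (omitting replicate 3 of day 0), and lower calls numbered 0 (omitting replicate 1, 2 or 3 of day 0 or replicate 1 or 2 of day 5), and after rescaling there were 1 higher and 4 lower. The higher gene was the inner centromere protein (F511_02817; 1.22, 2.1 and 3.15 to 6.48, 9.81 and 6.08 FPKM; 1.44, adjusted p = 0.0125). It lost its call on omitting replicate 2 of day 5 (adjusted p = 0.0556).

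Stress proteins related to desiccation were called higher in 4 of 23 late embryogenesis abundant and dehydrin genes and lower in 2, and the list's median of 1.05 was the highest of the lists with 20 or more genes. The summed FPKM of the list overlapped between the days, at 7560, 7120 and 9830 for day 0 and 11300, 9940 and 5710 for day 5, where replicate 3 was the lowest of all 6 libraries. Dehydrin Xero 1-like (F511_17762), a hydrophilic protein made in drying cells, rose from 242, 184 and 230.1 to 684, 494 and 469 FPKM (log2 fold change 1.31, SE 0.25, adjusted p = 0.00978), with means of 1034 and 1458 at days 10 and 15. Late embryogenesis abundant protein D-29 (F511_16650) had 13.7, 13.5 and 39.3 against 144, 108 and 45.1 FPKM. The call ended on omitting replicate 1 or 2 of day 0 or replicate 1 or 2 of day 5 (adjusted p from 0.0582 to 0.0599). Without 1 of the libraries, higher calls numbered 1 (omitting replicate 2 of day 5), 2 (omitting replicate 1 or 2 of day 0 or replicate 1 of day 5), 7 (omitting replicate 3 of day 0) and 9 (omitting replicate 3 of day 5), and lower calls numbered 0 (omitting replicate 1 or 2 of day 0 or replicate 1 or 2 of day 5), and after rescaling there were 2 higher and 2 lower. Of 46 chaperone genes 2 were called higher and 3 lower (3.47% and 3.84% over all genes), with a median of 0.30. The higher ones were the HSP70 genes F511_04348 (81.4, 96.5 and 228 to 373, 330.2 and 407 FPKM; 1.59, adjusted p = 0.013) and F511_27882 (118, 123 and 343 to 461, 494 and 617 FPKM; 1.60, adjusted p = 0.0151). Their calls were lost on omitting replicate 1 or 2 of day 0 or replicate 1 of day 5 (adjusted p from 0.0502 to 0.0528) and on omitting replicate 1 or 2 of day 0 or replicate 2 of day 5 (adjusted p from 0.0527 to 0.0607). In the leave-one-out fits, higher calls numbered 0 (omitting replicate 1 or 2 of day 0), 1 (omitting replicate 1 or 2 of day 5) and 4 (omitting replicate 3 of day 0). The chloroplast co-chaperones dnaJ 8 (F511_22529) and dnaJ 11 (F511_18166) fell, from 226, 249.8 and 209 to 59.3, 54.6 and 55.9 FPKM and from 650.4, 832 and 667 to 182, 192 and 213 (-1.99, adjusted p = 0.00435 and -1.86, adjusted p = 0.00635).

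**Figure D5:**
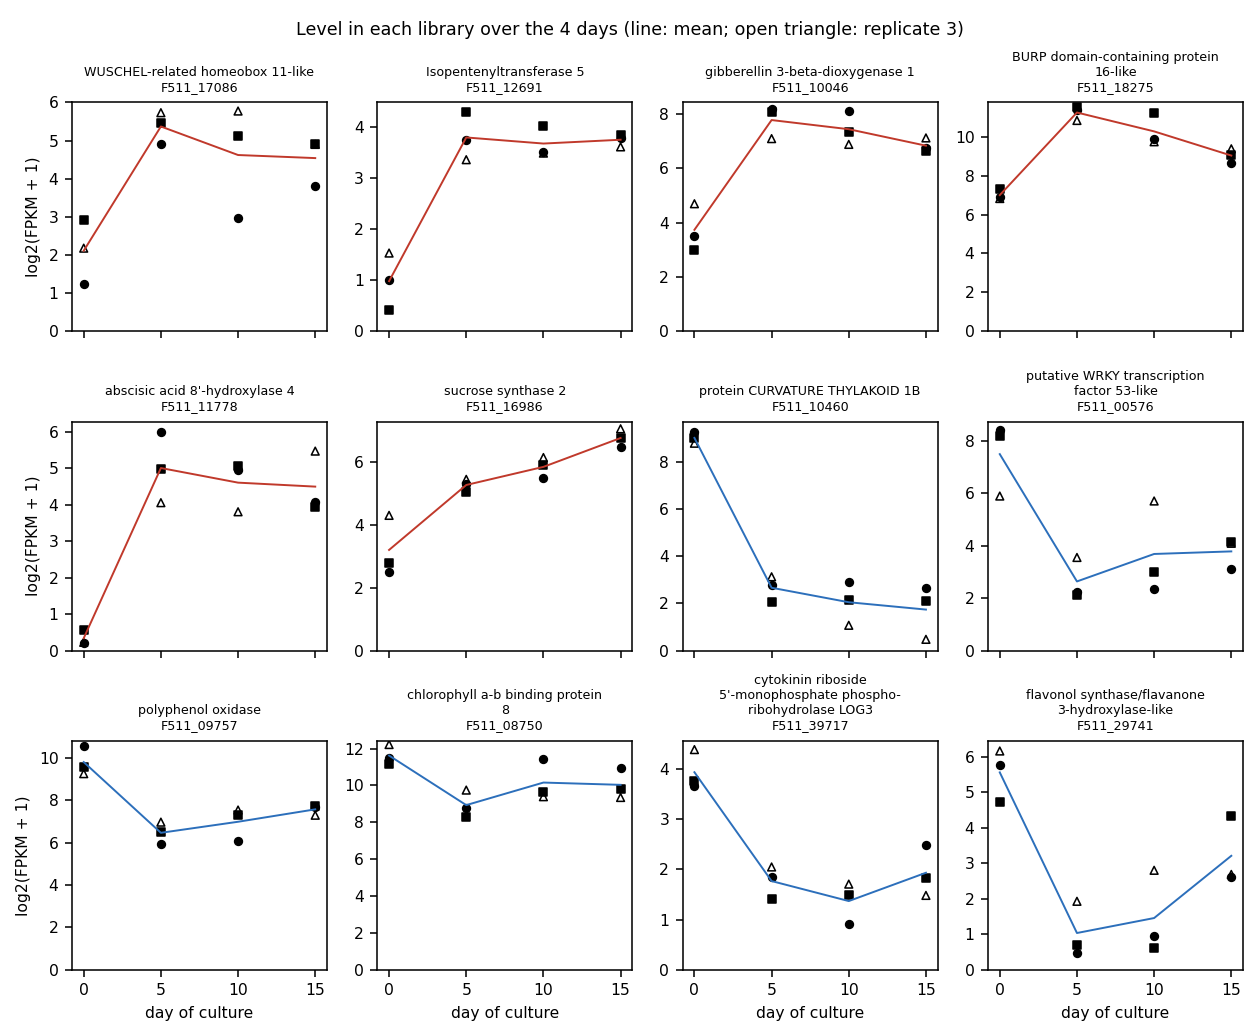
Level of 12 of the named genes in every library at days 0, 5, 10 and 15 (x axis), as log2(FPKM + 1) on the y axis, with open triangles for replicate 3 and lines through the daily means, red for genes called higher and blue for genes called lower at day 5. Sucrose synthase 2 has means of 9.78, 37.8, 57.4 and 109 FPKM over the 4 days.

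Some genes were listed at 0 FPKM on one of the days. Such genes were picked here by the values compared, and they pass the low-value filter only through the day on which they are high. Their direction was thus fixed by the choice, and their calls add no support. In 11 genes all day 0 libraries were at 0 and all day 5 libraries at 1 FPKM or more, and 7 of these were called higher (3.47% over all genes). Among them, named after their values were seen, were RING-H2 finger protein ATL80-like (F511_29191; 8.34, 9.8 and 3.12 FPKM at day 5), a membrane ubiquitin ligase, short-chain dehydrogenase reductase 2a (F511_45939; 5.06, 4.37 and 4.65), and IAA-amino acid hydrolase ILR1-like 2 (F511_40104; 3.48, 1.34 and 2.68), of a family that frees auxin from its conjugates. In 12 genes all day 5 libraries were at 0 and all day 0 libraries at 1 FPKM or more, of which 11 were called lower (3.84% over all genes). They included RADIALIS-like 4 (F511_28418; 3.65, 4.49 and 5.2 FPKM at day 0), a MYB-related protein, zinc finger protein 6-like (F511_39958; 7.8, 3.13 and 1.84), and the peptide gene CLAVATA3/ESR-related 16 (F511_06400; 2.09, 1.94 and 1.11). With each library left out in turn, the calls of F511_45939, F511_28418 and F511_39958 were made in all 6 fits, that of F511_29191 in 4, of F511_40104 in 3 and of F511_06400 in 1. A value listed at 0 can also be a failed estimate, so no fold is given for these.

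Of 10 genes found by guard cell and stomatal names 2 were called higher and 0 lower (1 lower at an unadjusted p under 0.05), against 3.47% and 3.84% of all genes. These were the peptide genes EPIDERMAL PATTERNING FACTOR-like 2 (F511_06072; 0.09, 0 and 0.68 to 2.83, 4.05 and 3.45 FPKM) and 4 (F511_00278; 0.75, 0.72 and 2.39 to 20.9, 18.5 and 13.6). Both are in the list by name alone, and whether they mark guard cells was not tested. The calls were lost on omitting replicate 1 or 2 of day 0 or replicate 2 of day 5 (adjusted p from 0.0568 to 0.0597) and on omitting replicate 1 or 2 of day 0 or replicate 1, 2 or 3 of day 5 (adjusted p from 0.0582 to 0.108). On omission of 1 library, higher calls numbered 0 (omitting replicate 1 or 2 of day 0 or replicate 2 of day 5) and 1 (omitting replicate 1 or 3 of day 5). The guard cell factor FAMA (F511_00758) did not pass (-0.41, adjusted p = 0.242). In the trichome (3 genes), xylem (3), phloem (4) and root (3) lists limma called 0 genes. At an unadjusted p under 0.05 the first 2 lists had 1 and 0 higher and 1 and 0 lower members. The phloem list had 0 higher and 1 lower, and the root list 1 higher and 1 lower. Summed FPKM of the root list was 75.9, 68 and 93.4 at day 0 and 126, 130.0 and 109 at day 5, that of the guard cell list 69.3, 66.9 and 76.2 and 62.1, 75.7 and 72.9. Of 79 genes often used as references 4 were called higher, among them actin-1 (F511_10180), which rose from 22.3, 17 and 26.9 to 50.1, 48.3 and 59.9 FPKM (1.24, adjusted p = 0.00563). With 1 library left out, higher calls numbered 2 (omitting replicate 1 or 2 of day 0 or replicate 1 or 2 of day 5), and lower calls numbered 2 (omitting replicate 3 of day 0).

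The CG methylation table lists 2247 regions that differ between young and mature leaves, 1 bisulfite library each, so that no test was made. A region in an exon or coding sequence, or within 2 kb up- or downstream, was listed for 4.11% of the genes tested (663). The shares were 2.5% of the genes called higher (14) and 3.87% of those called lower (24). Genes without an F511 locus tag are in the totals but could not be matched to a region. The chloroplast glutamine synthetase gene (F511_04119) had 4 such regions, among them a region of 301 bp with 13 CG sites in an exon, at a methylation level of 0.701 in young and 0.243 in mature leaves. Another exon region had 0.766 and 0.48. The others were higher in mature leaves, an exon region at 0.0203 against 0.118 and a downstream region at 0.858 against 1. The explants were not assayed for methylation, so these levels belong to intact leaves.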

How the data were processed

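RNA was measured in 12 libraries of leaf explants and methylation in 2 bisulfite libraries of leaves. Expression values were deposited as FPKM, whose reads, per the submitters' processing notes, were handled with HISAT, StringTie 1.0.4 and Bowtie2 2.2.5 (BSMAP is also named). The build is not given in the sources used here. The table gives no read totals, so depth is unknown and n = 3 per day sets the precision. Methylation levels were deposited by the authors as a fraction per region, without coverage. Libraries were mapped by their labels, and 6 columns of per-sample values that match no single sample were not used.

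Log2(FPKM + 1) values of all 12 RNA libraries were fitted with limma 3.58.1 (R 4.3.3), with a mean per day and trended, robust moderation, after dropping genes under 1 FPKM in more than 3 of the 6 libraries of days 0 and 5. P-values were adjusted by Benjamini-Hochberg over 16137 genes. The procedure was tested on simulated data. P-values measure the spread between biological replicates, each a pool of leaf segments. A gene's name is its product, or the first homology description where the product is hypothetical. The 60 gene lists are text patterns on these names and miss members with other names. The comparison and the lists were chosen with earlier results of these data known. Genes were named by a rule: the 15 largest called changes each way among genes of named proteins at 10 FPKM or more on average on the higher day and with no overlap of libraries, up to 3 called members of each list each way, all called members of the regeneration, auxin and cytokinin lists, and the 5 genes of highest level per day. Alternatives were the pseudocount, the low-value filter, median-ratio rescaling, the 6 libraries alone, a replicate block, replicates 1 and 2 alone, no fold minimum and each library left out. Methylated regions are described without a test, and non-CG regions were not used here.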

Additional observations from a re-analysis of the deposited data

How the results depend on the processing

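Day 5 against day 0 gave 1180 called genes, 560 higher and 620 lower. Leaving out 1 library at a time gave 450 to 1446 genes in all, 275 to 743 higher and 175 to 703 lower, with the fewest without day 5 replicate 2 and the most without day 0 replicate 3. Replicates 1 and 2 alone gave 2063 genes, 966 higher and 1097 lower. Without a fold minimum 2265 genes passed, 1478 of them higher. Median-ratio rescaling left 353 higher genes and a pseudocount of 5 left 369, and the cause of these shifts was not tested. The total under a pseudocount of 0.1 (1168), no filter on low values (951), a stricter filter (1219) and the 6 libraries alone (1028) stayed within 1.5 times the main count.

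Deviations of same-numbered libraries from their day means correlated with r = 0.156, -0.043 and 0.169 for replicates 1, 2 and 3. Those of differently numbered libraries ran from -0.247 (day 0 replicate 3 with day 5 replicate 1) to 0.183 (day 0 replicate 2 with day 5 replicate 1). Whether libraries of the same number share a batch is not given in the labels and was not tested. With the replicate block 1487 genes were called (707 higher, 780 lower), and with the replicate block on the 6 libraries alone 260 (114 higher, 146 lower), where fewer residual degrees of freedom remain.

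The direction turned in 3 named genes of high level, none of them called. F511_33644, at 0.10, had -0.071 after rescaling and -0.149 to 0.461 with 1 library left out. F511_19808, at -0.65, had 0.856 on replicates 1 and 2 and -1.323 to 0.43 with 1 library left out. F511_23910, at 0.22, had -0.292 on replicates 1 and 2 and -0.045 to 0.549 with 1 library left out. Of the 237 called named genes, 100 were called with any library left out, and 22 lost the call after rescaling, 39 on the 6 libraries alone and 48 with a pseudocount of 5. With the replicate block on the 6 libraries alone 184 lost it, some of them among the genes called with any library left out. Depth is unknown, so it cannot be said which low genes it limits.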
